A study of Rattus norvegicus with 9 samples.

Results

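The genes of the fibrillar collagens and of type VI collagen were measured in the livers of rats given vehicle, CCl4, or CCl4 with rottlerin (CCl4+Rot). The members were listed by symbol, as Col1a1, Col1a2, Col3a1, Col5a1 and Col5a2 for the fibrillar chains and Col6a1, Col6a2 and Col6a3 for type VI collagen. All 8 genes were found, of 14377 genes that the array table names singly, and they were read by 14 of 31042 probe sets tested. Each group held 3 male Sprague-Dawley rats, each rat gave 1 array of total liver RNA, and the ages are not given in the sources used here. The CCl4 group received intraperitoneal carbon tetrachloride in olive oil, 2 injections a week for 8 weeks, which damages hepatocytes and leads to fibrosis. The CCl4+Rot group received the same CCl4 course and intraperitoneal rottlerin at 2.5 mg/kg body weight, given 2 weeks after the first CCl4 injection, and whether it was repeated is not detailed in the sources used here. Rottlerin is used in the study to open BK channels, the large-conductance potassium channels gated by calcium and voltage. What the vehicle group was injected with is not detailed in the sources used here, and no rats given rottlerin without CCl4 are among the groups.

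Fibrillar collagens are the rod-shaped proteins that assemble into the cross-banded fibers of scar and connective tissue. Type I collagen is built from the products of Col1a1 and Col1a2, type III collagen from the product of Col3a1, and type V collagen, which helps fibrils to start and limits their width, from those of Col5a1 and Col5a2. Type VI collagen is made of 3 chains, from Col6a1, Col6a2 and Col6a3, and forms beaded filaments around cells and between the larger fibers. In injured liver these chains are made chiefly by activated hepatic stellate cells, also called myofibroblasts, and by portal fibroblasts. In RNA of whole liver, a change in the number of such cells and a change in the RNA per cell cannot be told apart.

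The start regions of a type I, a type V and a type VI gene are shown because the members of all these types were higher together in the same rats. Each window is 300 bases long, 250 before and 50 after the start that RefSeq gives on build GRCr8, and is written 5′ to 3′ on the strand of the gene. RefSeq windows were matched for 5 of the 8 members, namely Col1a2, Col5a1, Col5a2, Col6a1 and Col6a3. Capitals mark short words searched on both strands. TATAAA is the TATA box, and CCAAT is the core of the box bound by the factor NF-Y. The word CAGAC is bound by SMAD proteins, the transcription factors of TGF-beta signaling, and GGGCGG is the GC box.
Col1a2 (chr4:33518307-33518606, plus strand): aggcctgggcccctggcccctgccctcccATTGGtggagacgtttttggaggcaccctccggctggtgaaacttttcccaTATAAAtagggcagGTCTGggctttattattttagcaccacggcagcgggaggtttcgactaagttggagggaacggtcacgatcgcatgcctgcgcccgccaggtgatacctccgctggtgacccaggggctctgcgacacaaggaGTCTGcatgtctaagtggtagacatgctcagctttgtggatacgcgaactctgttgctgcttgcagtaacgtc
Col5a2 (chr9:55090102-55090401, minus strand): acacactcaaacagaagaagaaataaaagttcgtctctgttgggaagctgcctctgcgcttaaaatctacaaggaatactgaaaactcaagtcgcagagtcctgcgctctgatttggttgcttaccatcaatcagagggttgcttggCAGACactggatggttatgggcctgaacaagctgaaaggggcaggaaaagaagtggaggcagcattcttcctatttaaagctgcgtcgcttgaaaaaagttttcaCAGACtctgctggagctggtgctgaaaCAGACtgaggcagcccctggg
Col6a1 (chr20:11905440-11905739, plus strand): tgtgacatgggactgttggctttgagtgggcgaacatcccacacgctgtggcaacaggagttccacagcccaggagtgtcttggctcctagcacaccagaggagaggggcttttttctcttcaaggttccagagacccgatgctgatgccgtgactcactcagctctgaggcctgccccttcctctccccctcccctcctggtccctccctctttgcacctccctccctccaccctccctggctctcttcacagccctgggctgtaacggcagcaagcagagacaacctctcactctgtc
The Col1a2 window held the TATA word, starting 170 bases before the listed start, the NF-Y word on the opposite strand and the SMAD word at 2 places on the opposite strand. In Col5a2, the SMAD word stood at 3 places. The Col6a1 window held none of these words. Over the 33469 RefSeq windows of this length, the TATA word was found in 14.2%, the NF-Y word in 37.5%, the SMAD word in 50.1% and the GC box in 33.1%. Among the 5 members with a window, the TATA and NF-Y words were found in 1 each, which was Col1a2 for both, the SMAD word in 3 (Col1a2, Col5a2 and Col6a3) and the GC box in 1 (Col5a1). No word searched was shared by all 5 windows.

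The deposited values are log2 signals, scaled by the authors so that the trimmed mean of the linear signal is 500 on every array, and each signal has a call of present, marginal or absent. CCl4 replicate 3 stood apart, with 12714 probe sets called present and a median log2 signal of 7.81, whereas the other arrays had 15550 to 16849 present calls and medians of 6.79 to 7.01. Among transcripts detected on every array the medians were 9.51 to 9.58, CCl4 replicate 3 included. The median over all probe sets was 0.18 higher with CCl4 than in vehicle and 0.12 lower in CCl4+Rot than in CCl4 on the log2 scale, and centring each array on its own median shifted the CCl4 minus vehicle differences by 0.36 downward and the CCl4+Rot minus CCl4 differences by 0.25 upward. Of the members' brighter probe sets, those of 7 genes were called present on 9 of 9 arrays, and that of Col6a2 on 6. Each probe set has its own brightness per molecule. Log2 signals of different probe sets were therefore not compared with each other, apart from taking the brighter one of a gene.

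All 8 collagen genes had higher mean signals in CCl4 rats than in vehicle rats, by 1.87-fold (Col6a2) to 4.89-fold (Col1a1). In CCl4+Rot rats, the means of all 8 genes lay above those of CCl4 rats as well, by 1.22-fold (Col5a1) to 1.81-fold (Col6a2), and 2.9-fold (Col6a3) to 6.68-fold (Col1a1) above vehicle. Higher means were also found for 63.2%, 39% and 51.1% of all probe sets in these 3 comparisons. None of the members' differences passed the limma test at an adjusted p below 0.05 over all probe sets. No CCl4 or CCl4+Rot rat had a signal for any of these genes as low as the highest vehicle rat, in the brighter probe set of each gene. With 3 rats against 3, an exact permutation test of 1 gene cannot give a two-sided p below 0.1.

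**Figure D1:**
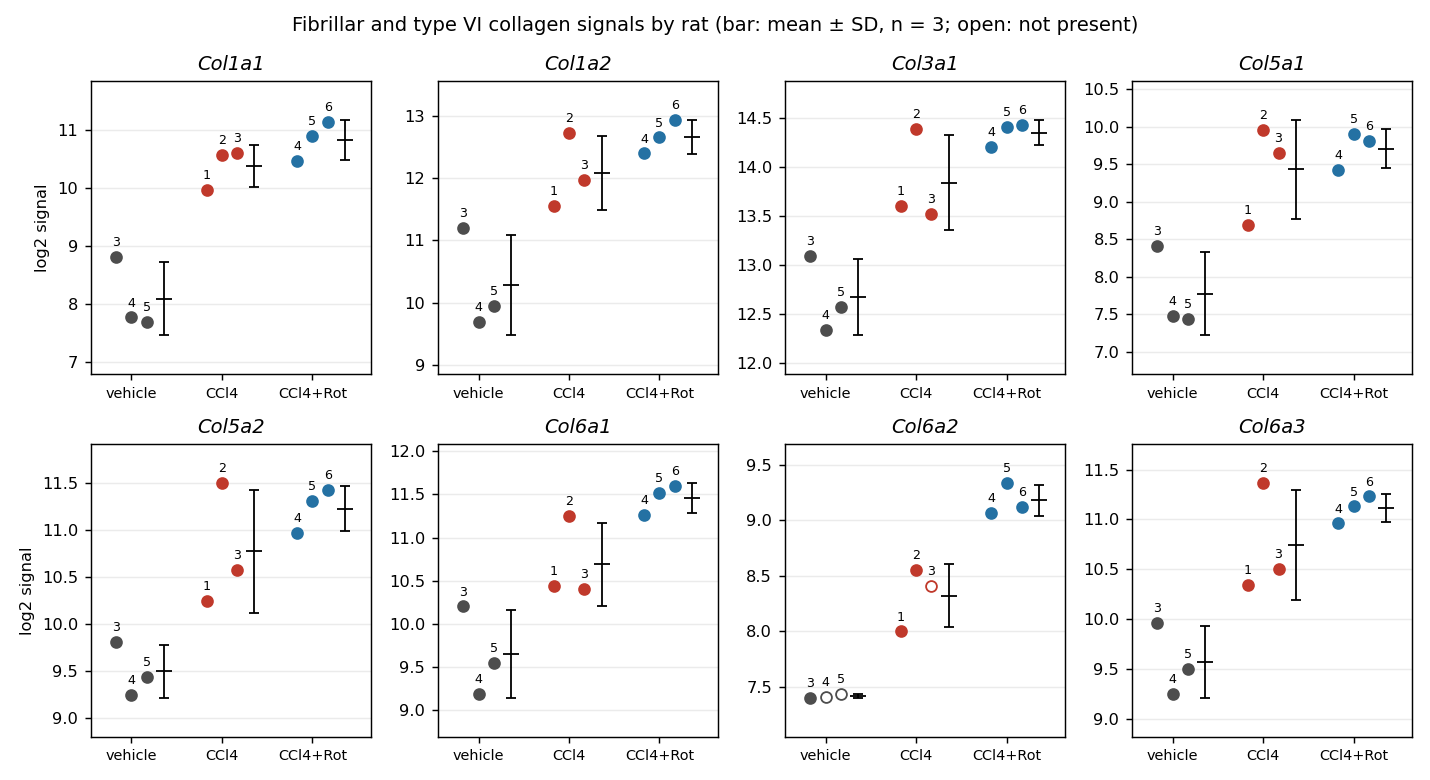
Log2 signal of the brighter probe set of each of the 8 collagen genes in each rat (points, numbered by replicate), with the mean and SD of each group (bars, n = 3). In each panel the vehicle points lie below those of CCl4 and CCl4+Rot, and only Col6a1 and Col6a2 have CCl4+Rot points that all lie above the CCl4 points. The vertical axes differ between panels, and open points are signals not called present.

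Col1a1 (Entrez Gene 29393) encodes the alpha 1 chain of type I collagen, the main fibrillar protein of liver scar. The table places it on the plus strand of chromosome 10, from 82563544 to 82580364, and names no genome build. Its log2 signals on probe set 1370864_at were 8.81, 7.77 and 7.69 in vehicle replicates 3, 4 and 5, 9.97, 10.57 and 10.61 in CCl4 replicates 1, 2 and 3, and 10.46, 10.90 and 11.14 in CCl4+Rot replicates 4, 5 and 6. The vehicle rats were separate from the rest, with vehicle replicate 3 the nearest, while the lowest CCl4+Rot rat lay within the CCl4 range. The CCl4 mean of 10.38 ± 0.36 (SD, n = 3) was 2.29 ± 0.361 (SE) above the vehicle mean of 8.09 ± 0.627 (SD, n = 3) on the log2 scale, with a 95% interval of 1.45 to 3.13 and a limma adjusted p of 0.171. The CCl4+Rot mean of 10.83 was 0.45 above that of CCl4, and the interval of -0.39 to 1.29 holds 0 (limma adjusted p = 0.793).

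Col1a2 (Entrez Gene 84352; chromosome 4, 29443177 to 29478621, plus strand), whose start region is printed above, encodes the alpha 2 chain of type I collagen. Probe set 1370155_at gave 11.20, 9.69 and 9.94 in vehicle replicates 3, 4 and 5, then 11.56, 12.73 and 11.98 in CCl4 replicates 1, 2 and 3, and 12.40, 12.66 and 12.94 in CCl4+Rot replicates 4, 5 and 6. Vehicle replicate 3 lay close below CCl4 replicate 1, and CCl4 replicate 2 lay within the CCl4+Rot range. The log2 difference between CCl4 and vehicle was 1.81 ± 0.456 (SE; 3.52-fold; limma adjusted p = 0.241). Between CCl4+Rot and CCl4 it was 0.58, with a 95% interval of -0.48 to 1.64.

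Col3a1 (Entrez Gene 84032; chromosome 9, 51714925 to 51725416, plus strand) encodes the single chain of type III collagen, which is laid down with type I in the expanding portal and septal matrix. Its only probe set, 1370959_at, read 13.09, 12.34 and 12.57 in vehicle replicates 3, 4 and 5, 13.60, 14.39 and 13.52 in CCl4 replicates 1, 2 and 3, and 14.20, 14.41 and 14.43 in CCl4+Rot replicates 4, 5 and 6. The rats given rottlerin were close together (SD 0.13), and CCl4 replicate 2 lay among them, above the other CCl4 rats. On the log2 scale CCl4 exceeded vehicle by 1.17 ± 0.296 (SE; 2.25-fold; limma adjusted p = 0.243), and CCl4+Rot exceeded CCl4 by 0.51, with an interval of -0.18 to 1.20.

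Col5a1 and Col5a2 encode type V collagen chains. For Col5a1 (Entrez Gene 85490), probe set 1376099_at at 11937345 to 11937879 on chromosome 3 (plus strand) read 8.41, 7.47 and 7.43 in vehicle replicates 3, 4 and 5, 8.69, 9.96 and 9.65 in CCl4 replicates 1, 2 and 3, and 9.42, 9.91 and 9.81 in CCl4+Rot replicates 4, 5 and 6. CCl4 replicate 1 was the nearest to vehicle, and CCl4 replicate 2 was above every CCl4+Rot rat. The CCl4 mean was 1.66 ± 0.401 (SE; 3.16-fold; limma adjusted p = 0.231) above vehicle, and the CCl4+Rot mean 0.28 above CCl4 (interval -0.65 to 1.22). Without CCl4 replicate 1 the latter difference turned to -0.09, which made Col5a1 the only member whose direction changed in this comparison when 1 array was left out. The other Col5a1 probe set was nearly as bright, with a mean of 8.93 against 8.97 over the 9 arrays, and is described below.

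For Col5a2 (Entrez Gene 85250; chromosome 9, 51758651 to 51769593, minus strand), probe set 1370895_at read 9.81, 9.25 and 9.44 in vehicle replicates 3, 4 and 5, 10.25, 11.51 and 10.58 in CCl4 replicates 1, 2 and 3, and 10.97, 11.31 and 11.43 in CCl4+Rot replicates 4, 5 and 6. The CCl4 rats spread more widely (SD 0.654) than those given rottlerin (SD 0.238), since CCl4 replicate 2 was the highest of all rats. CCl4 lay 1.28 ± 0.342 (SE; 2.43-fold; limma adjusted p = 0.252) above vehicle on the log2 scale, and CCl4+Rot lay 0.45 above CCl4 (interval -0.34 to 1.25). In RefSeq (GRCr8), Col3a1 and Col5a2 are neighbours with 0 protein-coding genes between them.

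Among the type VI chains, Col6a1 (Entrez Gene 294337; chromosome 20, 14818487 to 14835866, plus strand) encodes the alpha 1 chain. Its only probe set, 1371349_at, read 10.20, 9.19 and 9.55 in vehicle replicates 3, 4 and 5, 10.44, 11.25 and 10.40 in CCl4 replicates 1, 2 and 3, and 11.26, 11.52 and 11.60 in CCl4+Rot replicates 4, 5 and 6. None of the groups overlapped, although CCl4 replicate 2 came within 0.01 of CCl4+Rot replicate 4. CCl4 was 1.05 ± 0.332 (SE; 2.07-fold; limma adjusted p = 0.298) above vehicle, and CCl4+Rot was 0.77 above CCl4 (interval -0.01 to 1.54; limma adjusted p = 0.75).

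Col6a2 (Entrez Gene 361821; chromosome 20, 14958360 to 14959628, plus strand), which encodes the alpha 2 chain and neighbours Col6a1 in RefSeq with 0 protein-coding genes between them, was read by probe set 1371369_at. It gave 7.40, 7.41 and 7.44 in vehicle replicates 3, 4 and 5, of which only replicate 3 was called present. In CCl4 replicates 1, 2 and 3 it read 8.0, 8.55 and 8.41, the last of them called absent, and in CCl4+Rot replicates 4, 5 and 6 it read 9.07, 9.34 and 9.12, all present. The 3 groups did not overlap. CCl4 exceeded vehicle by 0.90 ± 0.188 (SE; 1.87-fold; limma adjusted p = 0.213). CCl4+Rot exceeded CCl4 by 0.86 ± 0.188 (SE; 1.81-fold; interval 0.42 to 1.29), with an unadjusted p of 0.00216 and a limma adjusted p of 0.608. Without CCl4 replicate 3, the array on which it was called absent, these differences were 0.86 and 0.90.

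Col6a3 (Entrez Gene 367313; chromosome 9, 97607475 to 97608098, minus strand) encodes the alpha 3 chain, the largest of the type VI chains. Probe set 1389966_at read 9.96, 9.25 and 9.50 in vehicle replicates 3, 4 and 5, 10.34, 11.37 and 10.50 in CCl4 replicates 1, 2 and 3, and 10.96, 11.13 and 11.23 in CCl4+Rot replicates 4, 5 and 6. As with Col5a2, CCl4 replicate 2 was above every CCl4+Rot rat, and the other CCl4 rats were below them. CCl4 was 1.17 ± 0.312 (SE; 2.24-fold; limma adjusted p = 0.252) above vehicle, and CCl4+Rot 0.37 above CCl4 (interval -0.35 to 1.10).

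**Figure D2:**
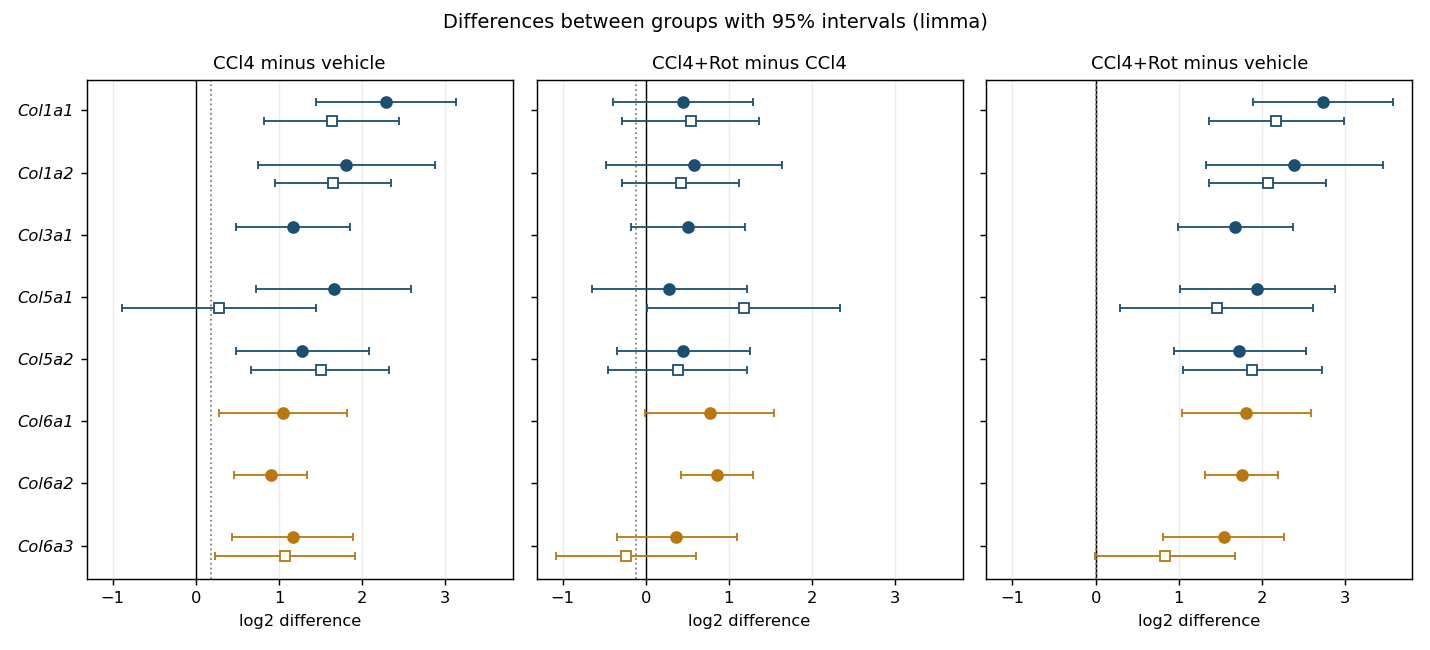
Log2 differences between groups with 95% intervals from limma, for the brighter probe set of each gene (filled circles) and the other probe set where there is one (open squares), in blue for fibrillar and orange for type VI genes. The dotted line is the median over all probe sets. The circles run from 0.90 to 2.29 for CCl4 minus vehicle, from 0.28 to 0.86 for CCl4+Rot minus CCl4 and from 1.54 to 2.74 for CCl4+Rot minus vehicle. The dim second probe set of Col6a2 is not drawn.

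The first comparison, of CCl4 with vehicle rats, asks which transcripts differ in the fibrotic liver. Of the 8 members, 0 were called by limma (adjusted p below 0.05 and at least 1.5-fold), where 0% of all probe sets were called. The unadjusted p was below 0.05 with a higher mean for 8 of 8, beside 8.64% of all probe sets, and the CCl4 and vehicle signals did not overlap for 8 of 8, beside 11.1%. The latter count could only stay at 8 when 1 array was left out, because leaving out an array cannot make groups overlap. It holds for the brighter probe sets, since CCl4 and vehicle rats overlapped on the other probe sets of Col5a1 and Col6a2. The median log2 difference of the members was 1.23 (2.34-fold), compared with 0.18 over all probe sets and 0.04 over the 17545 probe sets with a present call on 3 or more arrays. When the spread was estimated robustly and allowed to follow the signal (robust limma), 6 of the 8 members were called, beside 1.12% of all probe sets, with adjusted p of 0.00502 for Col1a1, 0.0331 for Col5a1, 0.0332 for Col3a1, 0.0413 for Col5a2, 0.0419 for Col6a3 and 0.0488 for Col6a2. Col1a2 had 0.0697 and Col6a1 0.0729 in that fit. Without vehicle replicate 3, robust limma called 6, beside 0.68% of all probe sets. It called 7 without CCl4 replicate 1 (beside 2.72%) and 2 without CCl4 replicate 3 (1.01%). Without any 1 of vehicle replicates 4 and 5, CCl4 replicate 2 and the CCl4+Rot rats, it called 1 (0.0934% to 0.812%). Col1a1 was among the members called each time. Without CCl4 replicate 3, the differences of the 8 members were 0.86 to 2.18, and after each array was centred on its median they were 0.54 to 1.93.

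The second comparison, of CCl4+Rot with CCl4 rats, asks what rottlerin changed in rats that all received CCl4. By limma, 0 of the 8 members were called, beside 0.00322% of all probe sets, and robust limma also called 0. The means of 8 of 8 members were higher in CCl4+Rot, beside 39% of all probe sets and 48.5% of those with a present call on 3 or more arrays. For Col6a1 and Col6a2, 2 of the 8, the CCl4+Rot signals did not overlap those of CCl4 and were higher, beside 4.73% of all probe sets, and for 0 members were they lower without overlap, beside 6.88%. An unadjusted p below 0.05 with a higher mean was found for 1 of the 8, Col6a2, beside 1.97% of all probe sets. The median log2 difference of the members was 0.48 (1.4-fold), compared with -0.12 over all probe sets and -0.01 over those with a present call on 3 or more arrays. It was 0.28 without CCl4 replicate 1, 0.80 without CCl4 replicate 2 and 0.19 when arrays were weighted by how closely they followed the fit. Those weights were 0.571, 2.06 and 0.193 for CCl4 replicates 1, 2 and 3. The intervals of the other 7 members hold 0, and their upper ends, 1.10 to 1.64, and lower ends, -0.65 to -0.01, bound the differences that these arrays allow. The differences ran from 0.25 to 0.90 without CCl4 replicate 3, from -0.09 to 0.70 without CCl4 replicate 1 and from 0.54 to 1.04 without CCl4 replicate 2. The number of members without overlap was 6 without CCl4 replicate 2, 4 without CCl4+Rot replicate 4 and 2 without any 1 of the other arrays. Leaving out an array can only keep or raise this number, and the share of all probe sets in these settings was not computed. Centring each array on its median gave 0.53 to 1.10.

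The third comparison set CCl4+Rot against vehicle. It shares its vehicle rats with the first comparison and its CCl4+Rot rats with the second. By limma 0 of the 8 members were called, beside 0.0258% of all probe sets, and the smallest adjusted p were 0.07 for Col6a2 and 0.11 for Col1a1. Without CCl4 replicate 1 or CCl4 replicate 2, which enter this comparison only through the shared estimate of the spread, 1 of the 8, Col6a2, was called. In these fits 0.0354% and 0.0773% of all probe sets were called. The CCl4+Rot and vehicle signals did not overlap for 8 of 8, beside 11.9% of all probe sets, and the unadjusted p was below 0.05 with a higher mean for 8 of 8, beside 5.63%. Robust limma called 8 of 8, beside 0.776% of all probe sets, with adjusted p from 0.00208 (Col1a1) to 0.0322 (Col1a2). That number was 8 when vehicle replicate 3 or either of CCl4 replicates 1 and 2 was left out (0.905% to 1.39% of all probe sets). It was 7 without CCl4 replicate 3 (1.18%) or CCl4+Rot replicate 4 (0.309%). It was 4 without vehicle replicate 4, vehicle replicate 5 or CCl4+Rot replicate 5 (0.177% to 0.283%), and 2 without CCl4+Rot replicate 6 (0.103%). The log2 differences were 2.74 ± 0.361 (SE) for Col1a1, 2.39 ± 0.456 for Col1a2, 1.94 ± 0.401 for Col5a1 and 1.81 ± 0.332 for Col6a1. For Col6a2, Col5a2, Col3a1 and Col6a3 they were 1.76, 1.73, 1.68 and 1.54. The median was 1.79, compared with 0.01 over all probe sets.

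The members varied together from rat to rat. Vehicle replicate 3 was the highest vehicle rat for 7 of the 8 genes, all but Col6a2, and CCl4 replicate 2 was the highest CCl4 rat for 7, all but Col1a1. CCl4 replicate 1 was the lowest CCl4 rat for 6 genes, and CCl4+Rot replicate 4 was the lowest of its group for 8 of 8. Averaged over the 5 fibrillar genes, signals stood 0.60, -0.36 and -0.25 from the vehicle mean in vehicle replicates 3, 4 and 5, and 1.15, 2.17 and 1.61 above it in CCl4 replicates 1, 2 and 3. In CCl4+Rot replicates 4, 5 and 6 the fibrillar average was 1.83, 2.18 and 2.29 above the vehicle mean. Of the CCl4 rats, replicate 2 alone lay within the CCl4+Rot range.

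The type VI average stood 0.72, 1.51 and 0.89 above the vehicle mean in CCl4 replicates 1, 2 and 3, and 1.55, 1.78 and 1.77 above it in CCl4+Rot replicates 4, 5 and 6. Every CCl4 rat was therefore below every CCl4+Rot rat in the type VI average but not in the fibrillar average. The fibrillar average exceeded that of type VI by 0.43, 0.66 and 0.72 in the CCl4 rats and by 0.28, 0.39 and 0.51 in the CCl4+Rot rats, and these ranges overlap. The difference between the collagen types was not tested. Over the 9 arrays, the 28 pairs of members correlated with r of 0.88 to 1.00 (median 0.96). Once each group's mean was taken away, the r values were 0.41 to 0.99 (median 0.83). These correlations are descriptions over rats that share a treatment and an array each, on which all members are read together.

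**Figure D3:**
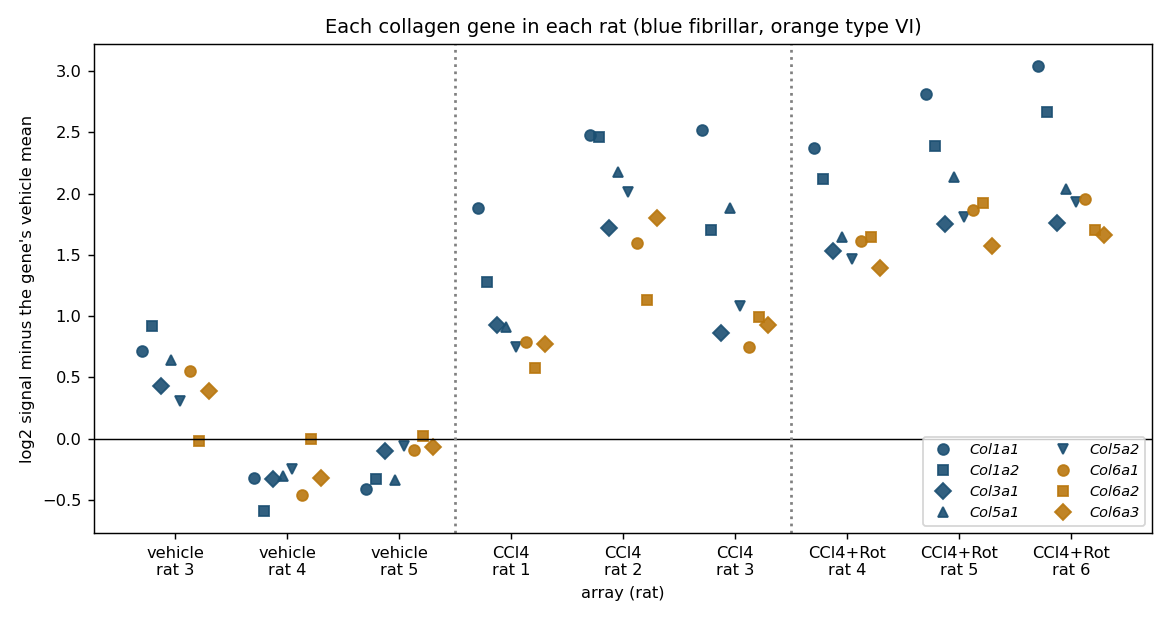
Log2 signal of each collagen gene minus the mean of the same gene in vehicle rats, for each of the 9 rats (blue, fibrillar; orange, type VI). The points of 1 rat shift together, with vehicle replicate 3 above the other vehicle rats except for Col6a2, and CCl4 replicate 2 near the level of the CCl4+Rot rats except for Col6a2.

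A further check on the values comes from the 6 genes that have another probe set. The brighter and the other probe set correlated over the 9 arrays with r of 0.96 for Col1a1, 0.98 for Col1a2 and 0.99 for Col5a2, and for these genes the other probe sets gave means that were 3.11-fold, 3.14-fold and 2.82-fold higher in CCl4 than in vehicle, and 1.45-fold, 1.34-fold and 1.31-fold higher in CCl4+Rot than in CCl4. For Col1a1, the other probe set separated the CCl4+Rot rats (9.74 to 9.90) from the CCl4 rats (8.43 to 9.68), which the brighter one did not.

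Col5a1 was the gene whose probe sets disagreed most (r = 0.69). Their means over the 9 arrays were nearly equal, at 8.97 and 8.93. The probe set read above was the brighter in CCl4 (9.43 against 8.63). It was the dimmer in vehicle (7.77 against 8.36) and in CCl4+Rot (9.71 against 9.81), so its choice rested on the CCl4 rats. The other probe set, 1369955_at, is placed at 11789102 to 11936631, just before the position of the first. It read 8.84, 8.28 and 7.95 in vehicle replicates 3, 4 and 5, 8.27, 9.76 and 7.86 in CCl4 replicates 1, 2 and 3, and 9.45, 9.87 and 10.12 in CCl4+Rot replicates 4, 5 and 6. On this probe set CCl4 replicates 1 and 3 lay within the vehicle range. CCl4 exceeded vehicle by 0.28 (interval -0.89 to 1.44) and CCl4+Rot exceeded CCl4 by 1.18 (interval 0.01 to 2.34; unadjusted p = 0.0478; limma adjusted p = 0.75). Whether Col5a1 stood higher after CCl4 alone, or mainly after CCl4 and rottlerin, thus depended on the probe set that was read.

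The other Col6a3 probe set, 1396055_at, also differed in the rottlerin comparison. It read 6.95, 5.85 and 6.61 in vehicle replicates 3, 4 and 5, 7.04, 7.93 and 7.65 in CCl4 replicates 1, 2 and 3, and 6.92, 7.59 and 7.40 in CCl4+Rot replicates 4, 5 and 6, and it was called present on 1 of the vehicle arrays. The CCl4 mean was 1.07 above vehicle, close to the brighter probe set, but the CCl4+Rot mean was 0.24 below CCl4 (-0.24, interval -1.08 to 0.61). The other Col6a2 probe set, 1376162_at, was called present on 1 array, that of CCl4+Rot replicate 5, so CCl4 and vehicle gave no fold. Its CCl4+Rot mean of 6.79 was 1.59-fold that of CCl4, a log2 difference of 0.67 (interval -0.41 to 1.74). Against vehicle it was 2.56-fold, a difference of 1.36 (interval 0.28 to 2.43). These folds compare group means and are not minima, and most of the signals behind them were not called present. CCl4 replicate 3, called absent at 7.13, lay above every CCl4+Rot rat (6.63 to 6.93).

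**Figure D4:**
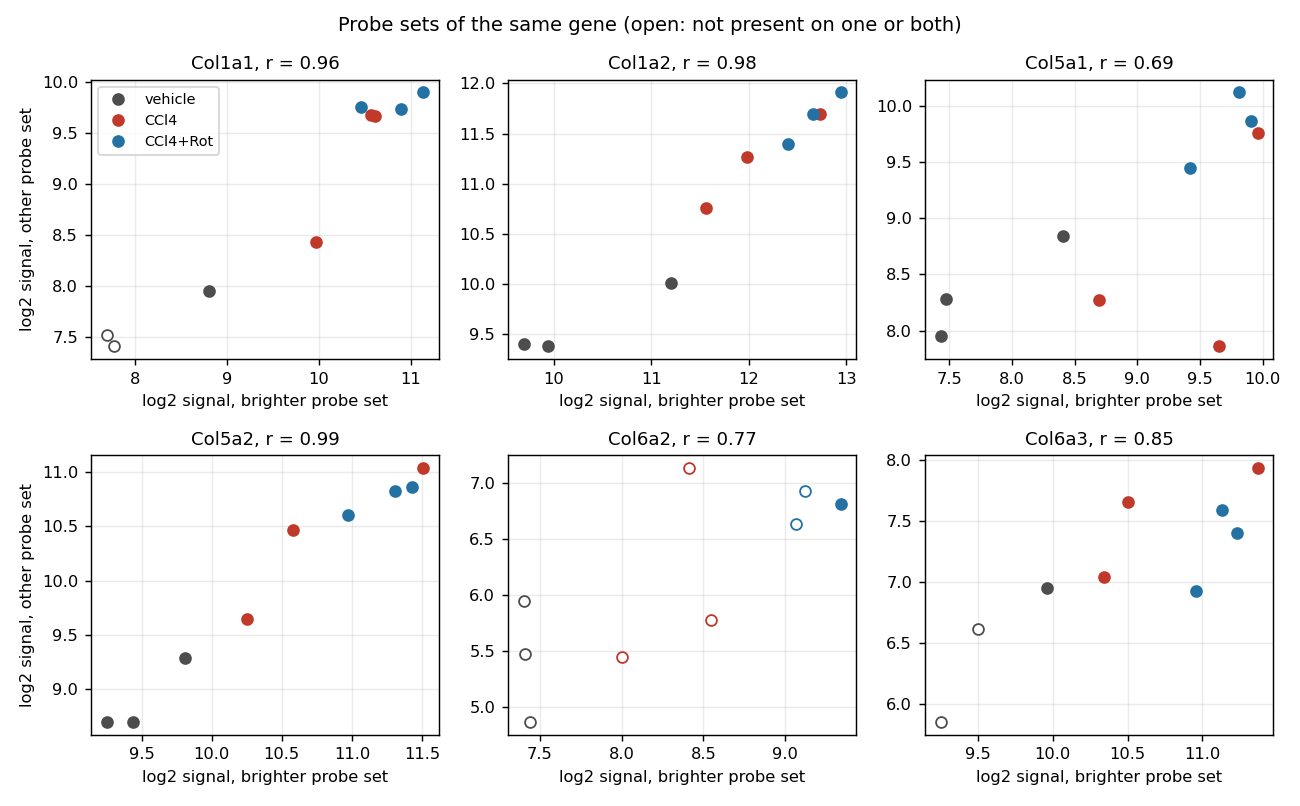
Log2 signal of the other probe set against that of the brighter probe set for the 6 genes with 2 probe sets, with 1 point for each of the 9 rats and open points where one or both were not called present. The points run along a line for Col1a1, Col1a2 and Col5a2 (r of 0.96 to 0.99), whereas for Col5a1 (r = 0.69) 2 CCl4 rats lie low on the vertical axis only.

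Of 9 other fibrillar and type VI chains listed, 7 were measured and 5 of those were called present on no array (Col2a1, Col5a3, Col11a2, Col24a1 and Col6a5). Col11a1, a minor fibrillar chain of cartilage, had log2 means of 5.94, 7.16 and 6.67 in vehicle, CCl4 and CCl4+Rot, a CCl4 difference of 1.21 that was 0.55 without CCl4 replicate 3. Col6a6, an alternative type VI chain, had means of 6.35, 6.49 and 7.03, and its CCl4 difference of 0.14 was -0.21 when arrays were centred on their medians. Of 14 chains that associate with fibrils or form other interstitial networks, 11 were measured, 4 were called present on at least 3 arrays and 0 were called by limma or robust limma in any comparison. An unadjusted p below 0.05 was found for 1 of the 11, with a higher mean, between CCl4 and vehicle, for 2, both with a lower mean, between CCl4+Rot and CCl4, and for 1 in each direction between CCl4+Rot and vehicle. The shares of all probe sets were 8.64% in the first case and 4.65% in the second. In the third they were 5.63% with a higher and 2.68% with a lower mean. Col14a1, which coats fibrils, was 0.53 higher with CCl4 and 0.83 higher in CCl4+Rot than in vehicle. Col16a1 was 0.39 and 0.53 higher. With arrays centred on their medians, the CCl4 differences were 0.17 for Col14a1 and 0.03 for Col16a1. Col12a1 was 0.29 and 0.35 higher, and its CCl4 difference was -0.07 without CCl4 replicate 3 and -0.07 with arrays centred on their medians.

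Procollagen chains are hydroxylated, folded with chaperones, trimmed and crosslinked before they form stable fibers, and 23 of 31 listed genes for these steps were measured. With CCl4, 0 were called by limma. An unadjusted p below 0.05 was found for 6 with a higher mean (8.64% of all probe sets) and 0 with a lower mean (3.72%). Robust limma called 3 (1.12% of all probe sets), which are named after their values were seen. They were Plod2, the lysyl hydroxylase of collagen ends (log2 difference 1.41, robust adjusted p = 0.0181), Serpinh1, the collagen chaperone HSP47 (1.19, 0.0128), and Pcolce, which enhances cleavage of the procollagen end (1.16, 0.0419). In CCl4+Rot these 3 stood 1.44, 1.46 and 1.32 above vehicle and were again called by robust limma. Loxl1, a lysyl oxidase that crosslinks elastin and collagen, was called present on 0 vehicle arrays, 2 CCl4 arrays and 3 CCl4+Rot arrays. Its mean was 8.9-fold higher in CCl4 and 14.8-fold higher in CCl4+Rot than in vehicle (limma adjusted p = 0.264 and 0.257). Its vehicle signals were 7.15, 5.89 and 3.49 in replicates 3, 4 and 5, and without vehicle replicate 5 the folds were 4.41 and 7.35. Fkbp10, a collagen prolyl isomerase, was likewise called present in no vehicle rat, in 1 CCl4 rat and in 2 CCl4+Rot rats. Its means were 2.97-fold and 3.29-fold higher than in vehicle (limma adjusted p = 0.218 and 0.204). The list's median CCl4 difference was 0.36, compared with 0.18 over all probe sets. Between CCl4+Rot and CCl4, the list had a median of 0.15, and 1 gene had an unadjusted p below 0.05 with a higher mean, beside 1.97% of all probe sets.

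Collagen is removed by matrix metalloproteinases and cathepsin K, which tissue inhibitors of metalloproteinases hold in check. Of 10 listed genes of this group 9 were measured. After CCl4, 6 of these had an unadjusted p below 0.05 with a higher mean (8.64% of all probe sets) and 1 with a lower mean (3.72%). By limma 0 were called, and by robust limma 3 (1.12% of all probe sets). Those 3 were Timp1, the main inhibitor induced in fibrotic liver, Mmp2, a gelatinase made by stellate cells, and Timp2, with log2 differences of 1.60, 1.18 and 1.06 and robust adjusted p of 0.00343, 0.0406 and 0.0194. Timp1 read 8.71, 8.24 and 8.50 in vehicle replicates 3, 4 and 5, 10.17, 10.09 and 9.98 in CCl4 replicates 1, 2 and 3, and 9.54, 9.39 and 10.01 in CCl4+Rot replicates 4, 5 and 6. Unlike the 8 collagens, its mean was lower in CCl4+Rot than in CCl4, by a difference of -0.43 (limma adjusted p = 0.758), which stayed between -0.61 and -0.31 when 1 array was left out and was -0.19 with arrays centred on their medians. Mmp2 was 0.68 higher in CCl4+Rot than in CCl4 (limma adjusted p = 0.752). Mmp8, a collagenase of neutrophils, was called present on 0 vehicle arrays and 1 CCl4 array. Its mean was 2.78-fold higher with CCl4, and 1.98-fold higher without CCl4 replicate 3, on which it read 7.79 and was not called present. The list's medians were 1.06 with CCl4 and 0.04 between CCl4+Rot and CCl4.

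Of 13 listed receptors for collagen, 8 were measured. Antxr1 and Antxr2 bind extracellular matrix, including type VI collagen, and differed in direction. Antxr2 read 10.92, 11.05 and 11.09 in vehicle replicates 3, 4 and 5, 10.35, 10.09 and 10.20 in CCl4 replicates 1, 2 and 3, and 10.71, 10.46 and 10.36 in CCl4+Rot replicates 4, 5 and 6. It was lower with CCl4, with a log2 difference of -0.80 (limma adjusted p = 0.211; robust adjusted p = 0.0194), and was the only gene of this list called by robust limma in a comparison. Antxr1 was 1.26 higher with CCl4, and 0.67 higher without CCl4 replicate 3. Ddr1, a receptor tyrosine kinase for fibrillar collagen, differed by 1.25 with CCl4, which turned to -0.07 without vehicle replicate 4 and was 2.49 without CCl4 replicate 3. Itga1, the collagen-binding integrin alpha 1 subunit, was 0.90 higher with CCl4 than in vehicle and differed by -1.65 between CCl4+Rot and CCl4 (limma adjusted p = 0.724). For these receptors 0 calls were made by limma, and the unadjusted p with CCl4 was below 0.05 for 1 gene with a higher and 1 with a lower mean. The shares of all probe sets were 8.64% and 3.72%, and robust limma called 1.12% with CCl4.

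TGF-beta, acting through SMAD proteins, is a main inducer of collagen genes in stellate cells. Of 14 listed genes of this input, 13 were measured, and Tgfb1, Tgfb2 and Tgfbr2 were among those called present on no array. Tgfb3, a TGF-beta ligand, was 1.44 higher with CCl4 and 1.64 higher in CCl4+Rot than in vehicle. Pdgfrb, the platelet-derived growth factor receptor of stellate cells, was 1.20 and 1.81 higher. Both were called by robust limma between CCl4+Rot and vehicle (adjusted p = 0.0465 and 0.042), and neither by limma, which called 0 of the 13 in any comparison. An unadjusted p below 0.05 was found for 2 of the 13, both with a higher mean, between CCl4 and vehicle and likewise for 2 between CCl4+Rot and vehicle. The shares of all probe sets were 8.64% and 5.63%, and robust limma called 0.776% between CCl4+Rot and vehicle. Ctgf, a matrix protein induced by TGF-beta, was 0.50 and 0.43 higher, with overlap between the groups, and its CCl4 difference was 1.04 without CCl4 replicate 3. With CCl4, Tgfbr1 and Smad2 differed by 0.27 and 0.25, and Smad3, Smad4, Smad7 and Sp1 by -0.08, -0.19, -0.29 and -0.13. The list's median CCl4 difference was 0.27, compared with 0.18 over all probe sets. Between CCl4+Rot and CCl4, 0 of the 13 had an unadjusted p below 0.05, and the list's median was 0.13.

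**Figure D5:**
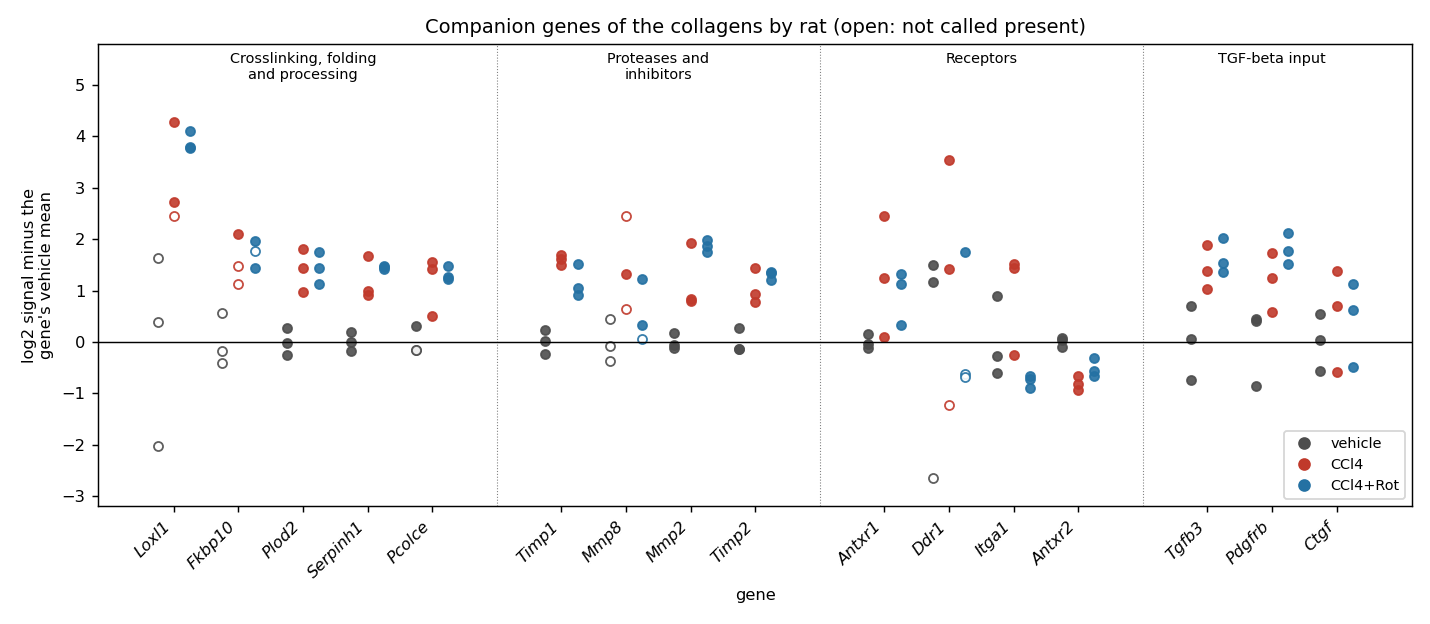
Log2 signal minus the mean of the same gene in vehicle rats for named genes of collagen processing, breakdown, binding and TGF-beta input, with 1 point for each of the 9 rats and open points where the gene was not called present. Plod2, Serpinh1 and Mmp2 of CCl4 and CCl4+Rot rats lie above all vehicle rats, Antxr2 lies below them, and Ddr1 spreads widely within each group.

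Markers of liver cell types were read beside the collagens, and for several lists the sums of CCl4 and vehicle rats overlapped. Of 12 markers of stellate cells and myofibroblasts, 11 were called present on at least 3 arrays and Hand2 on none, and their summed linear signal was 6270 to 7410 in vehicle, 7720 to 12400 in CCl4 and 9670 to 12800 in CCl4+Rot. Without Vim, the marker that added most to the CCl4 mean, the sum was 4930 to 5840, 5270 to 9200 and 6830 to 9490, so that vehicle and CCl4 rats overlapped. The list holds Pdgfrb, which is also among the TGF-beta input genes. Acta2, the smooth muscle actin of myofibroblasts, differed by 0.78 with CCl4, and by 0.34 without CCl4 replicate 3, on which it was not called present. Des, the desmin of stellate cells, differed by 0.83, and Rgs5, a marker of pericytes, by 1.18. Other markers of this list differed less, with Lrat at 0.32, Reln at 0.16, Tagln at 0.25 and Gfap at 0.53, and Lhx2 was lower, at -0.35. Without CCl4 replicate 3, Tagln and Gfap differed by -0.13 and -0.15. The list's median CCl4 difference was 0.62, compared with 0.18 over all probe sets. Of 8 measured macrophage markers, 7 were present on all arrays, with a summed signal of 13600 to 20800 in vehicle, 20700 to 27500 in CCl4 and 23800 to 30900 in CCl4+Rot, and Trem2 was called present on none. Among them Gpnmb was 10.6-fold higher with CCl4, whereas Cd163 and Clec4f, a receptor of Kupffer cells, were at 0.984 and 0.733 of their vehicle level. Without Gpnmb the sum was 12900 to 19500, 14000 to 19300 and 19800 to 24400, so that the CCl4 rats lay within the vehicle range. For the 7 markers of portal fibroblasts and vessel wall that were measured, the sum was 466 to 866, 510 to 1350 and 717 to 910. Of these markers, 3 were called present on at least 3 arrays, and Thy1 and Gli1 on none. The highest CCl4 sum was that of replicate 3, on which no marker of this list was called present. With CCl4, Eln, elastin, was 2.55 higher (limma adjusted p = 0.202, robust adjusted p = 0.046), and called present on 0 vehicle arrays. Entpd2 and Fbln2 were 1.01 and 0.84 higher, whereas Myh11 and Cnn1 differed by -0.58 and -1.87. All 7 hepatocyte markers were present on every array of this liver RNA, and their sum was 175000 to 194000 in vehicle, 124000 to 189000 in CCl4 and 177000 to 187000 in CCl4+Rot. The lowest CCl4 sum was that of replicate 3, the lowest CCl4 rat for each of these markers. Alb, for example, read 14.04 there, beside 15.10 and 15.06 in CCl4 replicates 1 and 2. The sum of 5 cholangiocyte markers, with Krt7 and Cldn4 present on no array, was 883 to 1070, 2520 to 5450 and 1240 to 2440. Most of that rise came from Spp1, osteopontin, which was called present on no vehicle array. Its mean was 32-fold higher with CCl4, whereas Krt19 and Epcam were 1.15-fold and 1.4-fold higher. Without Spp1 the sum was 807 to 1010 in vehicle, 1040 to 1570 in CCl4 and 966 to 1030 in CCl4+Rot. The 5 markers each of the capsule's mesothelium and of endothelium had sums of 1710 to 2190 and 8870 to 10000 in vehicle, 920 to 2610 and 6730 to 9460 in CCl4, and 1550 to 1940 and 9190 to 10100 in CCl4+Rot. The lowest CCl4 sum was that of replicate 2 for mesothelium, where Gpm6a read 5.08, and of replicate 3 for endothelium, where Lyve1 read 10.96. The other CCl4 rats read 8.95 and 9.01 for Gpm6a, and 11.84 and 12.15 for Lyve1. The part of cell numbers in the collagen differences was not tested.

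The genes most like the collagens were sought among 9803 others called present on at least 3 arrays, by Pearson's r over the 9 arrays. With the average of the fibrillar members, Colec12, a collectin scavenger receptor, had r = 0.990, followed by LOC685152 (0.985), Sox4, a transcription factor (0.980), Chek1, the checkpoint kinase (0.980), and Myh10, a non-muscle myosin (0.979). With the average of the type VI members, Lamb1, the laminin beta 1 chain of basement membranes, had r = 0.990, followed by Colec12 (0.989), Adamtsl2, a secreted matrix protein that binds microfibrils (0.985), Igfbp5, a binding protein of insulin-like growth factors (0.985), and Sox4 (0.985). Colec12 had log2 means of 7.92, 9.15 and 9.73 in vehicle, CCl4 and CCl4+Rot. Adamtsl2 had means of 7.97, 9.54 and 10.49. An r above 0.9 was found for 265 genes with the fibrillar average and for 204 with the type VI average, all over the same arrays and treatments, so likeness here describes a shared profile over these rats.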

How the data were processed

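Liver RNA of 9 rats was hybridised as biotin-labelled cRNA to Affymetrix rat expression arrays, with 1 array per rat and 3 rats in each group. The authors deposited 1 table of log2 signals and detection calls for 31099 probe sets. The submitters' processing notes name MAS5 and affy, without versions, and the linear signals of each array have a 2% trimmed mean of 500. Such scaling leaves differences in background between arrays. The genome build of the table is not given in the sources used here. Per-sample columns that could not be mapped numbered 0.

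After 57 control probe sets were left out, 31042 were fitted on the deposited log2 values with limma 3.58.1 (R 4.3.3) as 3 group means without covariates, and all p values were adjusted together (Benjamini-Hochberg). Calls required an adjusted p below 0.05 and a change of 1.5-fold or more. Robust limma used a trended, robust spread (statmod 1.5.0). A gene was read by its singly named probe set with the highest mean signal. Where a gene was present in 1 group alone, signals of the other group below the lowest present signal of their array were raised to it. For the genes given such folds in the text this raised no signal, so these folds compare group means and are not minima. Named genes were the members, from each companion list the 3 with the largest CCl4 difference among those present on at least 3 arrays, and the 5 most alike. Cell type markers were named after their values were seen. The members and lists were chosen with earlier results of these data known. Promoter windows and neighbours came from RefSeq (GRCr8). The fits were tested on simulated data. Labels mark separate rats, and the number of arrays limits the precision.

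Alternatives were quantile normalization, median centring, filters on dim or undetected probe sets, fits of only the 2 groups compared, robust limma, array weights, the methods' t-test, the replicate number as a block, other probe sets, a 2-fold threshold and each array left out. Robust limma with an array left out or with the other probe sets, marker sums without the leading marker, and fold bounds and marker differences with an array left out were chosen after seeing the data.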

Additional observations from a re-analysis of the deposited data

How the results depend on the processing

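With CCl4 against vehicle, the median of the members was 1.64 with array weights, and the number of members called was 1 among probe sets present on at least 3 arrays (Col1a1), 6 with robust limma, 4 with robust limma on the next probe set, and 1 to 7 with robust limma and 1 array left out. With CCl4+Rot against CCl4, array weights lowered the median of the members from 0.48 to 0.19, with Col5a2 at 0.03, Col5a1 at 0.04 and Col6a2 at 0.76. Col6a3 differed by -0.0009 with array weights and by -0.24 on its next probe set, under limma and robust limma alike, and Col5a1 by -0.09 (without CCl4 replicate 1, under both) to 0.55 with 1 array left out. With CCl4+Rot against vehicle, 2 members were called without the 30% dimmest probe sets, 2 with the detection filter, 2 with array weights, 8 with robust limma, 5 with robust limma on the next probe set, 0 to 1 with 1 array left out, and 2 to 8 with robust limma and 1 array left out. The causes were not tested, apart from the filters, which test fewer probe sets. In the other alternatives run, quantile normalization and median centring among them, the numbers of members called were 0. All member differences with CCl4 and with CCl4+Rot against vehicle stayed positive in each alternative. Over all probe sets, the detection filter called 78 with CCl4 against vehicle and 63 with CCl4+Rot against vehicle, compared with 0 and 8. The calls with CCl4+Rot against vehicle were 22 without the dimmest probe sets, 73 with array weights, 3 with quantile normalization, 2 with centring and 241 with robust limma. With robust limma and 1 array left out they were 32 to 433. With CCl4 against vehicle, robust limma called 348 probe sets, and 29 to 843 with 1 array left out.

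With the replicate number as a random block (consensus correlation -0.0327), the medians of the members were 1.23, 0.47 and 1.78, and 0, 0 and 0 members were called. Deviations of same-numbered arrays correlated at -0.0896, -0.0047 and -0.0125, so the numbers were not taken to pair the rats. With 3 rats a group, a p that misses the threshold does not show that groups were alike.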
